A study of Rattus norvegicus with 16 samples.

Results

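Hippocampal RNA of rats killed 5 days after an infusion of iron into the amygdala was compared with that of rats given the vehicle alone. Of the 16 arrays in the series, the 8 compared here were chosen by their labels, namely the 4 Fe day 5 arrays and the 4 control arrays, with 1 rat on each array. All rats were male Wistar rats, operated on at 5 weeks of age, with a guide cannula set in the right amygdala, and infused 5 days later with 1.0 µl of fluid. The Fe rats received 100 mM FeCl3 in saline at pH 2.2, the controls received saline at pH 2.2, and the right hippocampus was taken in every case. The Fe day 5 rats were killed on day 5, which the study calls the acute phase, whereas the controls were killed on day 15, so that iron, age and time since infusion cannot be told apart in this comparison. Recurrent seizures were seen in Fe rats but their rate was not measured, and none was seen in controls. The other 8 arrays, 4 from Fe day 15 and 4 from Fe day 30, entered the fit for its estimate of spread.

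Ferric chloride placed in the brain is a model of epilepsy after bleeding or head injury, since iron released from blood drives the formation of reactive oxygen species and seizures follow. The hippocampus receives strong input from the amygdala. Seizures are known to induce immediate early genes such as Fos, Arc and the Egr and Nr4a families in hippocampal neurons within minutes to hours, and tissue injury is known to bring in blood-derived cells, activate microglia and astrocytes, and induce proteins that store or oxidise iron. The principal neurons of the hippocampus are the granule cells of the dentate gyrus and the pyramidal cells of the CA fields, each with their own marker genes, while the choroid plexus and the meninges lie against the hippocampal surface and can come along with the dissected tissue.

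Every value below is a relative log2 signal, that is, the log2 intensity of a probe minus the 75th percentile of its array, so that 0 lies at that percentile and 1 unit is 2-fold. Levels are compared between arrays for the same gene only. The 26231 features compared included 9494 with a gene symbol (36.2%) and 16737 without. The 75th percentile of the intensity ran from 553 to 864 over the control arrays and from 693 to 924 over the Fe day 5 arrays, and 74.2% to 81.6% of the transcript spots on these 8 arrays were well above background. The tissue label was checked against markers. All 6 neuronal markers and all 3 markers of principal cells (Prox1, Wfs1 and Neurod6) were well above background on all 4 controls, as were those of microglia, astrocytes and oligodendrocytes. Markers of neighbouring tissue were also measured. Of the choroid plexus markers Ttr and Folr1 were well above background on all 4 controls, and Kcnj13 and Clic6 on 2 of 4 each. The meningeal markers Dcn, Lum, Slc22a6 and Col1a1 were so on all 4. In bulk tissue, a change in the number of cells of a type and a change in RNA per cell cannot be told apart.

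Fe day 5 replicates 2 and 3 stood apart from all other arrays of the comparison in their meningeal and choroid plexus genes. The signals of the 30 measured meningeal and fibroblast genes, summed on the linear scale in units of the 75th percentile, came to between 46.0 and 53.6 on the controls, 51.3 on Fe day 5 replicate 1, 455 on replicate 2, 166 on replicate 3 and 61.2 on replicate 4. The 20 choroid plexus genes summed to between 10.1 and 13.0 on the controls and to 14.8, 114, 71.6 and 16.2 on Fe day 5 replicates 1 to 4. Most of the 114 on replicate 2 came from Igf2, a gene that choroid plexus and meninges share. Among the plexus markers, Ttr was 0.38 on replicate 2 against −2.64 to 0.04 on the controls, and Folr1 −2.31 against −3.22 to −2.60. Kcnj13 was −0.51 there against −6.38 to −4.79, and Clic6 −4.11 against −6.92 to −4.90. The main counts and the gene groups that rest most on these replicates are also given without them. The slides were shared unevenly as well. Fe day 5 replicate 4 lay on the slide of control replicate 1, and this was the only slide that held both groups, so the difference between those arrays is the only value within a slide.

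No gene passed the threshold at day 5. With limma and Benjamini-Hochberg adjustment over all 26231 features, 0 were called at an adjusted p under 0.05, which is 0.0%, and the lowest adjusted p was 0.427. Genes are therefore described below by their values and by their unadjusted p, and none is said to have changed. At an unadjusted p under 0.05, 1062 features (4.05%) were higher and 1676 (6.39%) lower in the Fe day 5 hippocampus, 2738 in all. Whatever their p, 11958 features were higher on average and 14273 lower, and the splits of gene groups below stand beside that split. With Fe day 5 replicates 2 and 3 left out, limma called 0 and the counts at an unadjusted p under 0.05 were 905 higher and 1081 lower. Leaving out single arrays moved the total of 2738 most for Fe day 5 replicate 2, without which it was 1351, and for control replicate 2, without which it was 1595. With slide as a block it was 1098, and with weights for each array 4588. The background correction bears on this split. Of the features at an unadjusted p under 0.05, 38.8% were higher with the processed signal and 18.3% with normexp background correction, while the median difference over all features was −0.02 and −0.08 in turn.

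The groups separated fully for few features. On all 4 Fe day 5 arrays, 727 features (2.77%) lay above every control and 1350 (5.15%) lay below every control. Differences of larger size were more often upward, and 327 features had a mean difference of 2-fold or more upward and 86 downward. Of these, 92 and 29 were free of overlap between the groups. Only 16 features were at least 2-fold above the control mean on each of the 4 Fe day 5 arrays, and 3 were at least 2-fold below it on each. The 5 of the 16 with a symbol, singled out after their values were seen, were Cdh1, Sostdc1, Lrrc17, S100a8 and Pla2g2a, and none of the 3 lower ones had a symbol.

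Among the higher genes with full separation, the lowest p belonged to Arhgap17, which encodes a GTPase-activating protein. Its relative signal was −2.05, −1.97, −1.85 and −1.76 on control replicates 1 to 4 and −0.45, −0.66, −0.87 and −1.11 on Fe day 5 replicates 1 to 4. Every Fe array lay above every control, and the spread was wider in the Fe group (SD 0.28) than in the controls (SD 0.13). The difference was 1.14 ± 0.23 (SE, n = 4 and 4), or 2.20-fold, with a limma adjusted p of 0.469. Within the shared slide, the difference was 0.95.

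Both subunits of calprotectin, the calcium-binding protein that neutrophils and activated myeloid cells release, were among the highest in this group. S100a9 stood at −6.16, −6.26, −5.51 and −5.68 on the controls and at −5.00, −3.87, −4.22 and −4.30 on the Fe day 5 arrays. S100a8 stood at −7.43, −8.43, −6.13 and −8.27 on the controls and at −5.02, −4.44, −5.42 and −5.14 on the Fe day 5 arrays. The groups did not overlap for either gene, and Fe day 5 replicate 2 was the highest array for both. The differences were 1.55 ± 0.34 for S100a9 and 2.56 ± 0.58 for S100a8, both with a limma adjusted p of 0.469. Both probes were dim. S100a8 was well above background on only 1 of 4 controls, and with normexp background correction the differences shrank to 0.24 for S100a9 and 0.22 for S100a8. Without Fe day 5 replicates 2 and 3, the processed signal gave 1.25 and 2.48.

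Heph encodes hephaestin, a copper-containing ferroxidase that oxidises ferrous iron as it leaves the cell. It was −2.76, −2.92, −2.85 and −2.92 on the controls, which lay within 0.08 of one another by SD, and −1.60, −1.11, −2.18 and −1.65 on the Fe day 5 arrays. All 4 Fe arrays were above the controls, with replicate 3 the nearest to them. The difference was 1.23 ± 0.30, or 2.34-fold, and 1.11 within the shared slide. A second gene linked to iron by function, Cyb561a3, encodes a cytochrome b561 protein that can reduce ferric iron in lysosomes. It was −1.52 to −1.70 on the controls and −0.94 to −0.44 on the Fe day 5 arrays, a difference of 0.83 ± 0.19. Its probes disagreed in size, with differences from 0.38 to 0.83.

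The other 7 higher genes of the 12 with the lowest p differed by less, apart from Lrrc17, which encodes a secreted leucine-rich repeat protein. Lrrc17 ran from −6.28 to −5.49 on the controls and from −4.34 to −1.82 on the Fe day 5 arrays. That is a difference of 2.58 ± 0.60 on a dim probe, which was 0.76 with normexp. Ccna2, the cyclin A2 of the S and G2 phases, was higher by 0.74 ± 0.19, and butyrylcholinesterase, Bche, by 0.52 ± 0.14. Over the alternative settings listed at the end, these ran from 0.15 to 0.92 for Ccna2 and from 0.07 to 0.61 for Bche. Cfp, which encodes properdin, the factor that stabilises the alternative complement convertase, was higher by 0.44 ± 0.12. Wipf1, a partner of the actin regulator WASP, was higher by 0.53 ± 0.15 and varied little among Fe arrays, from 1.06 to 1.11, while a single control at −0.01 lay well under the other 3. Trim47, a ubiquitin ligase of the tripartite motif family, was higher by 0.50 ± 0.14. Pafah2, an enzyme that hydrolyses platelet-activating factor and oxidised phospholipids, was higher by 0.46 ± 0.12 but lower by 0.13 with normexp, so that its direction rests on the background correction.

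The 12 lower genes of lowest p with full separation differed by between 0.28 and 0.73 on the log2 scale. Stat6, the transcription factor activated by interleukin 4 and interleukin 13, was −2.38, −2.18, −2.37 and −2.47 on the controls and −3.52, −3.17, −2.65 and −2.99 on the Fe day 5 arrays. It lay below every control on each Fe array, with a difference of −0.73 ± 0.16, and of −0.61 within the shared slide. Tef, a clock-output transcription factor of the PAR bZIP family, was 2.04, 2.18, 2.06 and 2.05 on the controls and 1.68, 1.56, 1.86 and 1.75 on the Fe day 5 arrays. Its difference was −0.37 ± 0.09, on a bright probe.

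Crtc1 encodes a coactivator that carries activity signals to the transcription factor CREB in neurons. It was −1.87, −1.69, −1.86 and −1.95 on the controls and −2.27, −2.40, −2.09 and −2.40 on the Fe day 5 arrays, a difference of −0.45 ± 0.12. Lrrc8a, the required subunit of volume-regulated anion channels, was lower by 0.28 ± 0.07, and its probes ranged from −0.58 to −0.28. Ivd and D2hgdh, mitochondrial enzymes of leucine breakdown and of 2-hydroxyglutarate removal, differed by −0.43 ± 0.10 and −0.54 ± 0.14. Ndst1, an enzyme of heparan sulfate synthesis, differed by −0.41 ± 0.10, and Cdc7, a kinase of replication origin firing, by −0.44 ± 0.11. Slmap and Bin3, which encode membrane-associated proteins, differed by −0.39 ± 0.09 and −0.32 ± 0.08. Tmem202 differed by −0.36 ± 0.07, with control values between −2.32 and −2.26. The protocadherin Pcdhga5 differed by −0.49 ± 0.12, and since genes of that cluster share exons its signal may include its neighbours. With slide as a block, 11 of the 12 higher and 11 of the 12 lower had an unadjusted p under 0.05 and 0 passed adjustment by limma. These genes were picked on the same arrays, so this refit is no separate check of them. Full separation also fixes the direction of their differences within the shared slide.

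**Figure D1:**
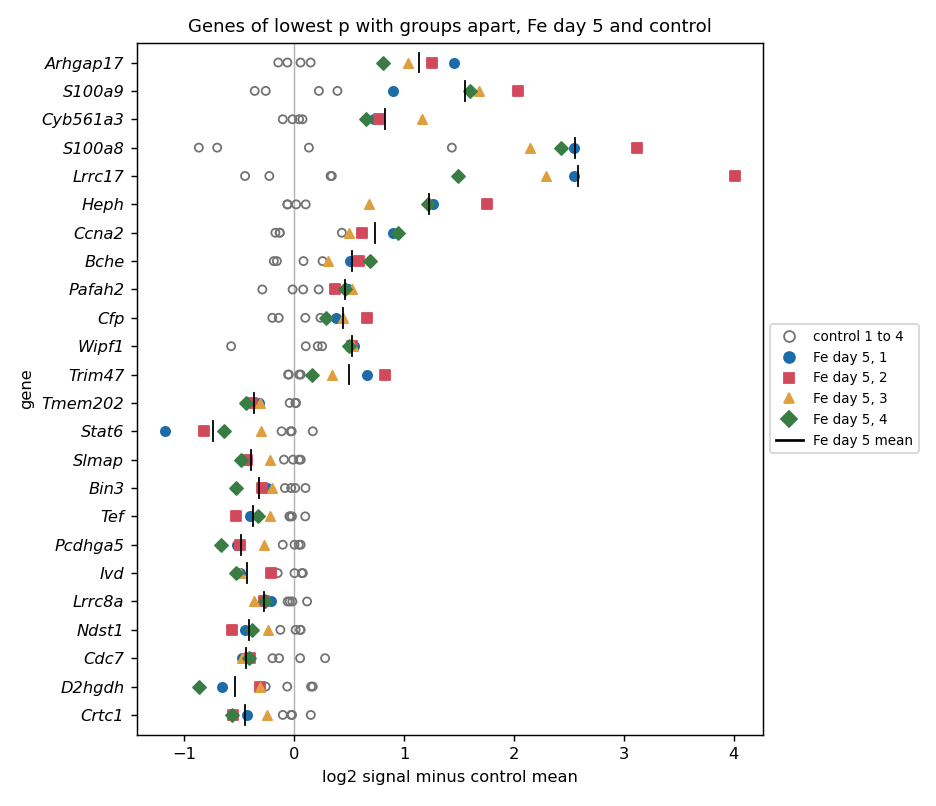
Log2 signal minus the control mean (x axis) for the 12 higher and 12 lower genes of lowest unadjusted p whose groups do not overlap (y axis). Open circles are the 4 control arrays, filled symbols the 4 Fe day 5 arrays and black ticks the Fe day 5 mean. Lrrc17 and S100a8 lie farthest right at 2.58 and 2.56, and the lower genes lie between −0.73 and −0.28.

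Among genes well above background on all 8 arrays and at an unadjusted p under 0.05, those of largest difference varied widely over the Fe day 5 arrays. Cdh1 and Lrrc17 had larger differences but did not meet that signal limit on every control. Plagl1, an imprinted zinc finger transcription factor, was −5.85 to −4.49 on the controls and −1.49, −0.67, −4.10 and −4.38 on Fe day 5 replicates 1 to 4. Replicates 1 and 2 were far above the controls and replicates 3 and 4 just above them. The difference was 2.56 ± 0.78, with an SD of 1.86 in the Fe group against 0.61 in the controls. Tacr3, the neurokinin 3 receptor, had −4.07 to −2.07 on the controls and −0.06, 0.35, −3.30 and −1.12 on the Fe arrays, a difference of 2.17 ± 0.78. The interferon-induced GTPase Mx1 had −6.02 to −4.91 on the controls and −2.34, −0.60, −3.98 and −5.76 on the Fe arrays, so that replicate 4 lay within the control range. Tnnt2, which encodes a troponin T of heart muscle, showed the same order, with −0.61, 1.55, −1.29 and −3.34 against −3.87 to −2.27 on the controls. The differences were 2.48 ± 1.15 for Mx1 and 2.28 ± 0.92 for Tnnt2.

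Col3a1, the fibrillar collagen of loose connective tissue, had another pattern. It was −2.11, −2.36, −2.28 and −2.08 on the controls and −1.96, 2.76, 1.11 and −1.87 on the Fe day 5 arrays, so that replicates 2 and 3, the arrays with the most meningeal signal, carried its difference of 2.22 ± 0.98, which was 0.29 without them. Gpha2, a glycoprotein hormone subunit, was likewise high on replicates 2 and 3, at −1.66 and −2.51, against −4.41 and −5.46 on replicates 1 and 4 and −5.91 to −5.28 on the controls. Its difference was 2.12 ± 0.73, and 0.70 without replicates 2 and 3.

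Of the largest lower differences, that of Wfs1 was −1.83 ± 0.60. Wfs1 encodes wolframin, a protein of the endoplasmic reticulum that marks CA1 pyramidal cells. It was 3.21, 3.18, 2.92 and 2.51 on the controls and 0.82, −0.68, 2.23 and 2.10 on the Fe day 5 arrays. All 4 Fe arrays were below the controls, replicates 1 and 2 by far the most. Ppl, a plakin of cell junctions, was −0.81 to −0.34 on the controls and −3.32, −4.05, −0.30 and −1.95 on the Fe arrays, with replicate 3 next to the highest control. Wnt10a, a secreted Wnt ligand, was −2.17 and −2.56 on Fe day 5 replicates 1 and 2 and 0.17 and −0.10 on replicates 3 and 4, the last pair within the control range of −0.51 to 0.82. The chemokine receptor Cxcr1 differed by −1.73 ± 0.59, Lrrc10b by −1.34 ± 0.46 and Lingo3 by −1.16 ± 0.48, with the lowest value on replicate 2 for each. With slide as a block, none of these 12 genes had an unadjusted p under 0.05.

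**Figure D2:**
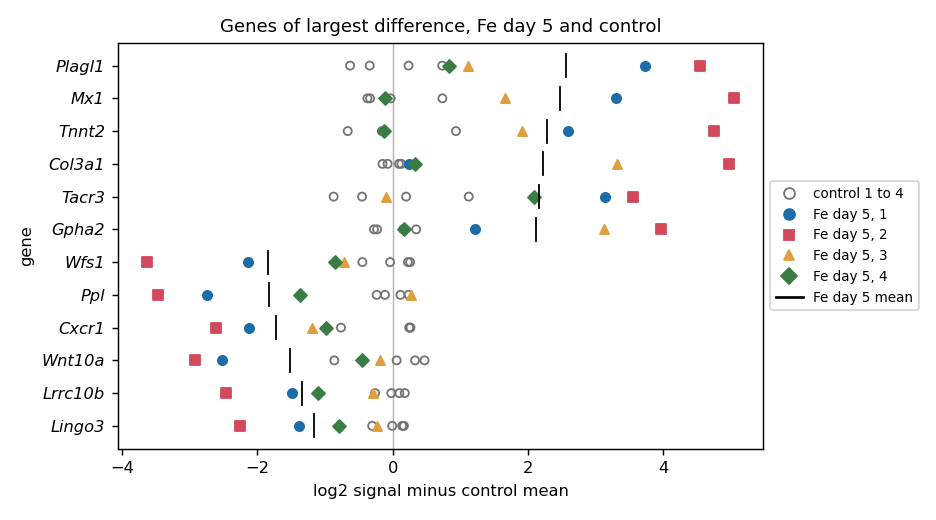
Log2 signal minus the control mean (x axis) for the 6 higher and 6 lower genes of largest difference at an unadjusted p under 0.05 and well above background on all 8 arrays (y axis), drawn as open circles for the 4 controls, filled symbols for the 4 Fe day 5 arrays and black ticks for their mean. Replicate 2 is the most distant Fe array for all 12 genes, among them Col3a1 at 2.76 and Wfs1 at −0.68 in relative signal.

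Immediate early genes, the first genes that neurons transcribe after strong activity, lay mostly lower at day 5. Of 30 measured, 21 were lower and 9 higher, with a median difference of −0.26 against −0.02 over all features. At that unadjusted threshold, 10 of 30 (33.3%) were lower and 0 were higher, beside 6.39% and 4.05% of all features, and 0 were called. The 10 were Egr2, Egr3, Egr4, Nr4a1, Arc, Dusp5, Dusp6, Trib1, Per1 and Plk2. Without Fe day 5 replicates 2 and 3 the median was −0.23, while 0 were lower and 1 higher at an unadjusted p under 0.05. The count of 10 lower genes was 6 without replicate 2, 16 without replicate 4, 5 without control replicate 1, 16 with array weights and 1 with slide as a block.

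The promoters of 3 of these genes are shown because CREB, the partner of Crtc1, acts through the cyclic AMP response element. The sequences are the 300 bases around the start site from RefSeq on GRCr8, given 5′ to 3′ on the strand of the gene, with the element TGACGTCA or its half-site TGACG in capitals, read on both strands, so that CGTCA is the half-site on the other strand. Plk2 lies at chr2:43702286-43702585 on the plus strand, Nr4a1 at chr7:134259888-134260187 on the plus strand and Egr4 at chr4:119607768-119608067 on the minus strand.
Plk2: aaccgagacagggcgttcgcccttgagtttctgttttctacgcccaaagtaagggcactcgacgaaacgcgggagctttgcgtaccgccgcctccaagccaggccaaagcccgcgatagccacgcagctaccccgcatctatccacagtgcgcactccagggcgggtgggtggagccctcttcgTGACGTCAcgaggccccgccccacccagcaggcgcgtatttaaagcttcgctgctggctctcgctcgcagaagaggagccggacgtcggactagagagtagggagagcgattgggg
Nr4a1: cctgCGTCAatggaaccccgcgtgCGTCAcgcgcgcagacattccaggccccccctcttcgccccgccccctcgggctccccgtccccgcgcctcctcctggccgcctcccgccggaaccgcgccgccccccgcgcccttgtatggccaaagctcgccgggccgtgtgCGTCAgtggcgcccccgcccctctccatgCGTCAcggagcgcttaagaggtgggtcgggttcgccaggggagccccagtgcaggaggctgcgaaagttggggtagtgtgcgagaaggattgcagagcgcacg
Egr4: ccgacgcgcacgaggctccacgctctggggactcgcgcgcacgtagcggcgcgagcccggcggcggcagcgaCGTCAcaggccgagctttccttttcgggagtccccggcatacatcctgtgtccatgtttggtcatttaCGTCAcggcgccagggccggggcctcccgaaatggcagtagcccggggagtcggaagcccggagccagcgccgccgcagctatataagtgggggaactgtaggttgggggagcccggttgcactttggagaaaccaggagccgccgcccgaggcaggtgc
The Plk2 window holds 1 full element, whose ends both count as half-sites, while the Nr4a1 window holds 4 half-sites and the Egr4 window holds 2. The half-site was present in 12 of the 21 measured immediate early genes with a promoter in that table, in 5 of the 7 that were lower at an unadjusted p under 0.05 and in 22.0% of all 27457 promoters. The full element was present in 5 of 21, in 1 of 7 and in 1.91%. All 3 promoters shown are among the 5 of 7 with the half-site. A match is a description of the letters and not of binding, and any part of Crtc1 or CREB in these differences was not tested.

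Plk2, a kinase that dampens excitatory synapses after activity, was 2.33, 2.46, 2.33 and 2.33 on the controls and 1.86, 1.52, 1.92 and 2.23 on the Fe day 5 arrays. All 4 Fe arrays were lower, replicate 4 by the least, and the difference was −0.48 ± 0.16. Nr4a1, an orphan nuclear receptor, was 4.45, 4.37, 4.12 and 4.24 on the controls and 3.32, 2.92, 3.39 and 4.49 on the Fe arrays. Here replicate 4 lay above every control, so the groups overlapped, and the difference was −0.76 ± 0.31. Egr4, a zinc finger factor, was 3.13 to 3.47 on the controls and 2.80, 2.41, 2.70 and 3.16 on the Fe arrays, a difference of −0.58 ± 0.21. Arc, whose protein trims synaptic glutamate receptors, was 4.77, 4.56, 4.31 and 4.26 on the controls and 3.26, 2.36, 3.44 and 4.48 on the Fe arrays. Replicate 4 was again inside the control range, and the difference was −1.09 ± 0.43. Trib1, a pseudokinase, was −3.50, −3.89, −3.03 and −2.53 on the Fe arrays against −2.60 to −2.01 on the controls, with replicate 4 again among them and a difference of −0.88 ± 0.28.

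The classical seizure marker Fos was 0.35, −0.05, −0.18 and 0.34 on the controls and −0.19, −0.37, −0.67 and 0.89 on the Fe day 5 arrays. Fe day 5 replicate 4 was the highest of the 8 arrays and replicate 3 the lowest, and the difference was −0.20 ± 0.32. Dusp6, a phosphatase that turns off ERK signalling, lay below every control on all 4 Fe arrays, from 2.72 to 3.44 against 3.77 to 3.97, a difference of −0.81 ± 0.30. The median over the 30 genes of the signal minus the control mean was −0.34, −0.47, −0.36 and 0.02 on Fe day 5 replicates 1 to 4 and −0.08 to 0.11 on the controls. Replicate 4 thus sat among the controls, and within its slide the median difference was −0.11.

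**Figure D3:**
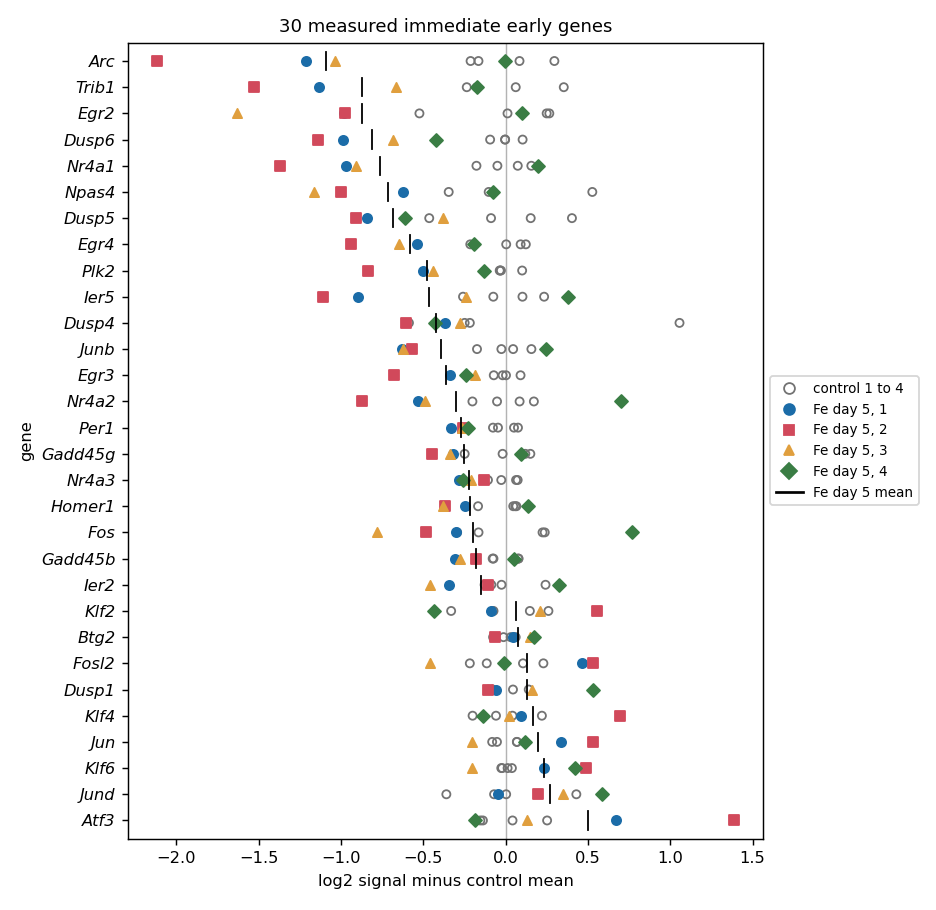
Log2 signal minus the control mean (x axis) for the 30 measured immediate early genes (y axis), ordered by difference, with open circles for the 4 controls, filled symbols for the 4 Fe day 5 arrays and black ticks for their mean. For Arc and Nr4a1, at −1.09 and −0.76, replicates 1 to 3 lie below the controls and replicate 4 lies among or above them.

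Genes induced later by activity differed less. Of 25 measured late activity genes and neuropeptides, 19 were lower, 5 of them at an unadjusted p under 0.05 beside 6.39% of all features, and the median difference was −0.13. That count was 0 and the median −0.07 with slide as a block, and the count was 1 without Fe day 5 replicate 2 or control replicate 3 and 0 without Fe day 5 replicates 2 and 3. The 5 were Bdnf, Nptx2, Inhba, Rasl11b and Nrn1. Bdnf, the main activity-regulated neurotrophin, was 0.82, 0.77, 1.07 and 0.81 on the controls and 0.56, 0.36, 0.64 and 0.66 on the Fe day 5 arrays. All Fe arrays were below the controls, with a difference of −0.31 ± 0.11. Rasl11b, a small GTPase, was lower by 0.73 ± 0.28. The neuropeptide gene Sst, which marks a class of inhibitory interneurons, went the other way, with 4.25, 3.92, 3.65 and 4.00 on the controls and 4.33, 4.83, 3.92 and 4.77 on the Fe arrays, a difference of 0.51 ± 0.21.

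Of 36 voltage-gated channel genes, 23 were lower, 8 of them (22.2%) at an unadjusted p under 0.05 beside 6.39% of all features, and the median difference was −0.19. That count was 3 without Fe day 5 replicate 2, 12 without Fe day 5 replicate 3, 4 without control replicate 1, 5 without Fe day 5 replicate 1 or control replicate 3 and 1 with slide as a block. They include the sodium channel genes Scn8a and Scn3b, the calcium channel genes Cacna1a, Cacna1e and Cacna2d3 and the potassium channel genes Kcnd2 and Kcnh1. Cacna1a, the pore of P/Q-type calcium channels, was −1.84 to −1.58 on the controls and −2.35, −2.69, −1.82 and −2.26 on the Fe arrays, and Cacna1e, the pore of R-type channels, was −0.33 to 0.28 and −0.61 to −0.18. The differences were −0.63 ± 0.20 for Cacna1a and −0.44 ± 0.14 for Cacna1e.

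Glutamate receptor and transporter genes had a median difference of −0.16, with 17 of 23 lower. At an unadjusted p under 0.05, 4 were lower (17.4%), beside 6.39% of all features. That count was 0 without Fe day 5 replicate 2, 1 without control replicate 2, 2 without control replicate 4 and 0 with slide as a block. Grin1, the obligatory NMDA receptor subunit, was 3.61, 3.66, 3.61 and 3.56 on the controls and 3.33, 3.14, 3.36 and 3.32 on the Fe day 5 arrays. The groups did not overlap and the difference was −0.32 ± 0.12. The AMPA receptor subunits Gria1 and Gria3 differed by −0.43 ± 0.17 and −0.36 ± 0.15, and the NMDA receptor subunit Grin2a by −0.55 ± 0.26. The channel and glutamate lists were lowest on Fe day 5 replicate 2, at −0.40 and −0.32, against −0.16 to −0.13 and −0.10 to −0.09 on the other 3 Fe arrays. GABA receptor and synthesis genes were divided evenly, 10 of 20 higher and 10 lower, with a median of −0.01 whose sign turned with array weights and when certain arrays were left out. In that list Gabra4, a subunit common in dentate granule cells, differed by −0.50 ± 0.18, and Gabrg3 by 0.71 ± 0.27 but by −0.07 with normexp. Synaptic vesicle genes had a median of −0.02, with 18 of 27 lower, among them the vesicle calcium sensor Syt7 at −0.80 ± 0.24, the priming factor Unc13a at −0.46 ± 0.17 and the synapsin gene Syn1 at −0.23 ± 0.10. In the endocannabinoid system 7 of 11 genes were lower. Mgll, which breaks down 2-arachidonoylglycerol, was lower by 0.55 ± 0.21 and its relatives Abhd6 and Abhd12 by 0.16 ± 0.07 and 0.17 ± 0.08, although the probes of Abhd12 ran from −0.17 to 0.03.

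Markers of hippocampal principal cells had the lowest median of the 39 lists, −0.38, with 18 of 26 lower. At this threshold, 7 (26.9%) were lower and 0 higher, beside 6.39% and 4.05% of all features, and 0 were called. Beside Wfs1 they were C1ql2, Bok, Neurod2, Rgs14, Necab2 and Cntnap5a, and without Fe day 5 replicates 2 and 3 the median was −0.35 with 6 lower. The count of 7 was 3 without replicate 2, 13 without replicate 3, 4 without control replicate 2 or 3 and 1 with slide as a block. C1ql2, a synaptic organiser secreted by dentate granule cells, was 3.49, 3.87, 3.62 and 4.11 on the controls and 3.38, 2.52, 3.43 and 3.43 on the Fe day 5 arrays. All Fe values were below the controls, that of replicate 2 far below the other 3, and the difference was −0.59 ± 0.21. Rgs14, a signalling regulator typical of CA2 pyramidal cells, was 2.79 to 3.20 on the controls and 2.23, 1.16, 2.64 and 2.75 on the Fe arrays, a difference of −0.84 ± 0.37. Neurod2, a transcription factor of excitatory neurons, differed by −0.63 ± 0.25, and Necab2, a neuronal calcium-binding protein, by −0.40 ± 0.17. Cntnap5a, a neurexin family adhesion protein, differed by −0.45 ± 0.13, and Bok, a Bcl2 family protein, by −0.77 ± 0.29. The list score was −0.40, −0.54, −0.05 and −0.27 on Fe day 5 replicates 1 to 4 and −0.07 to 0.04 on the controls, so replicate 3 lay among them. The summed linear signal of the 26 genes, which rests on the brightest, gave another order. It was 262 to 273 on the controls and 274, 242, 253 and 236 on Fe day 5 replicates 1 to 4, with replicate 1 the highest array.

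Interneuron markers were mostly higher, 16 of 20, with a median of 0.22, and 3 (15.0%) were higher at an unadjusted p under 0.05 beside 4.05% of all features. Fitted with slide as a block, that count was 0 and the median 0.12, and the count was 1 without Fe day 5 replicate 2 or 4 or control replicate 2 or 3, and 7 without Fe day 5 replicate 3. Besides Sst these were Reln, whose protein reelin is made by Cajal-Retzius cells and interneurons, at 0.31 ± 0.14, and the serotonin 2C receptor gene Htr2c. Htr2c was −0.86, −1.64, −1.20 and −0.29 on the controls and 1.68, 2.52, −0.73 and 0.74 on the Fe day 5 arrays, a difference of 2.05 ± 0.71, with replicate 3 inside the control range. Htr2c is also a gene of the choroid plexus, whose list scores were 0.40, 1.46, 2.06 and 0.09 on the same arrays, and the part of that tissue in its difference was not tested. Markers of neighbouring brain regions were divided 14 to 14, with a median of 0.01 that turned negative under the array median, quantile and normexp scalings. In that list the striatal regulator Rgs9 differed by 0.67 ± 0.25 and the orexin gene Hcrt by −0.44 ± 0.18.

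**Figure D4:**
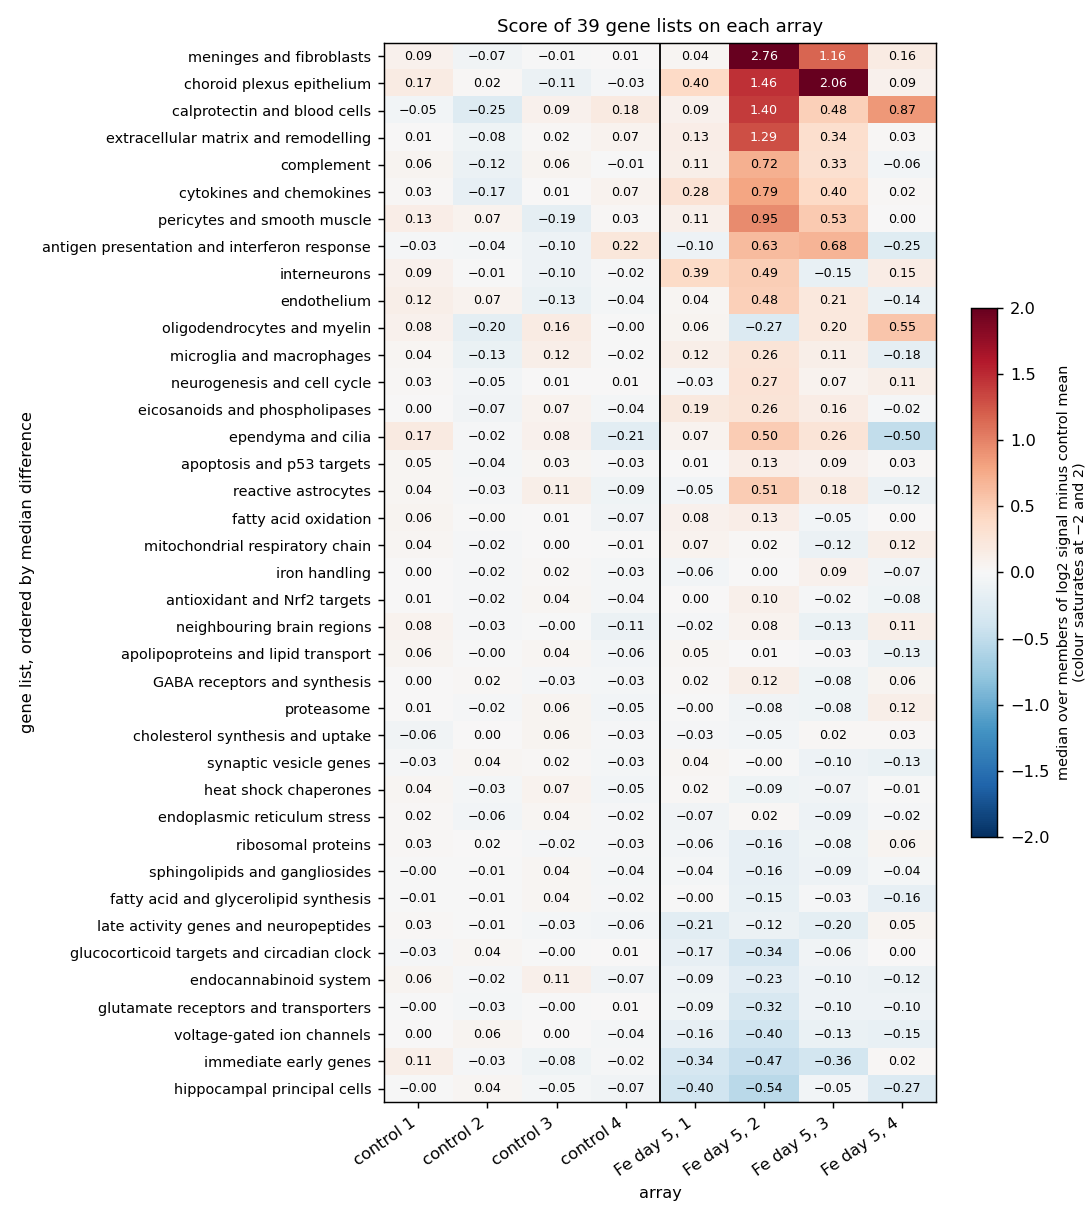
Score of each of the 39 gene lists (y axis, ordered by the median difference) on each of the 8 arrays (x axis). The score, printed in each cell and coloured, is the median, over the members measured, of their distance from the control mean in log2 signal. The highest scores, 2.76 for meninges on replicate 2 and 2.06 for choroid plexus on replicate 3, stand beside 0.04 and 0.40 on replicate 1.

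Genes of the meninges and fibroblasts had the highest median of all lists in the main fit, 1.05, with choroid plexus close to it at 1.01. Of these meningeal and fibroblast genes, 29 of 30 were higher and 9 (30.0%) at an unadjusted p under 0.05 beside 4.05% of all features. The list score was 0.04, 2.76, 1.16 and 0.16 on Fe day 5 replicates 1 to 4 and −0.07 to 0.09 on the controls. Without replicates 2 and 3 the median was 0.09, with 1 of 30 higher at an unadjusted p under 0.05. The count of 9 ran from 2 without replicate 2 to 20 without replicate 1, was 4 without replicate 3, control replicate 1 or control replicate 3, 5 without control replicate 2 or 4 and 19 without replicate 4, and was 2 with slide as a block. Col1a1, the main chain of fibrillar collagen, was −0.29, −0.34, −0.37 and −0.13 on the controls and 0.05, 4.26, 2.48 and −0.09 on the Fe arrays, a difference of 1.96 ± 0.88. Cdh1, the epithelial cadherin, was not well above background on any control and was on all 4 Fe arrays, where it read −6.18, −2.25, −3.65 and −5.09. It read −7.68, −8.88, −8.17 and −6.18 on the controls, the last level with Fe day 5 replicate 1, so the groups overlapped. The probe was kept through the Fe group alone. With each control raised, where lower, to the lowest signal that counted as well above background on its array, the Fe mean was 4.57-fold higher. That Fe mean rests most on replicates 2 and 3. The value holds for the processed signal alone and is no bound, since the log2 difference ran from 0.58 to 4.06 over the alternative settings. Pdgfra, a receptor of fibroblasts and of oligodendrocyte precursors, was 1.36 to 1.56 on the controls and 1.73, 2.38, 1.80 and 1.68 on the Fe arrays. The groups did not overlap and the difference was 0.40 ± 0.14. Igfbp5, a binding protein for insulin-like growth factors, differed by 0.88 ± 0.31, with −3.43 and −3.02 on replicates 1 and 2 and −4.33 and −4.32 on replicates 3 and 4 against −5.06 to −4.36 on the controls.

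Choroid plexus genes were higher in 19 of 20, with a median of 1.01 and list scores of 0.40, 1.46, 2.06 and 0.09 on Fe day 5 replicates 1 to 4, and 0 passed an unadjusted p of 0.05 in limma in either direction. Fitted on the 8 arrays alone, 8 were higher at that threshold, beside 1408 of all 26231 features. With array weights 3 were higher and 1 lower, and without Fe day 5 replicate 1 or 4 the higher ones came to 3 and 4. The median was 0.15 without replicates 2 and 3 and 0.47 with normexp. Kcnj13, a potassium channel of choroid plexus epithelium, was −6.38 to −4.79 on the controls and −3.76, −0.51, −0.22 and −5.05 on the Fe arrays, a difference of 3.27 ± 1.64 that was 1.25 without replicates 2 and 3. Ttr, the transthyretin gene and the most abundant transcript of that epithelium, varied among the controls as well, at 0.04, −0.95, −1.96 and −2.64, and was 1.18, 0.38, 4.60 and −0.81 on the Fe arrays, a difference of 2.72 ± 1.79. The markers Folr1 and Clic6 differed by 0.41 ± 0.97 and 1.85 ± 1.33. The growth factor gene Igf2, shared by choroid plexus and meninges, was 1.84 to 2.20 on the controls and 1.90, 6.54, 4.72 and 2.21 on the Fe arrays, a difference of 1.84 ± 1.01 that was 0.05 without replicates 2 and 3. Genes of extracellular matrix and remodelling had a median of 0.51, with 18 of 23 higher and 5 (21.7%) at an unadjusted p under 0.05 beside 4.05% of all features, and a score of 1.29 on replicate 2. The count was 0 with slide as a block, 3 with normexp, where the median was 0.32, 1 without replicate 2, 9 without replicate 4, 2 without control replicate 1 and 3 without control replicate 3. Without replicates 2 and 3 the median was 0.10 and the count 1. Among them Fbln5, an elastic fibre protein, stood above all controls on all 4 Fe arrays, at −4.71, −2.80, −4.11 and −4.80 against −5.71 to −5.23, a difference of 1.41 ± 0.46. Ccn1, a matricellular protein, did so too, at −3.56 to −2.38 against −4.38 to −3.77, a difference of 1.04 ± 0.38. The periostin gene Postn differed by 1.52 ± 0.60, and by 0.10 to 1.94 over the alternative settings. The part of meningeal and choroid plexus tissue in these matrix differences was not tested.

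Pericyte and smooth muscle genes had a median of 0.26 and scores of 0.11, 0.95, 0.53 and 0.00 on Fe day 5 replicates 1 to 4, with Tagln, an actin-binding protein of smooth muscle, at 1.24 ± 0.48, Mustn1 at 0.93 ± 0.31 and the intermediate filament gene Des at 0.95 ± 0.44. Without replicates 2 and 3 the list median was 0.07, Tagln differed by 0.19, Mustn1 by 0.25 and Des by −0.07. Endothelial genes had a median of 0.18, with 19 of 23 higher and 0 at an unadjusted p under 0.05 in limma in either direction, and the median was −0.09 without replicates 2 and 3. Within that list the endothelial cadherin gene Cdh5 differed by 0.60 ± 0.30, the adrenomedullin receptor partner Ramp2 by 0.33 ± 0.16 and the leukocyte adhesion gene Vcam1 by 0.19 ± 0.11. Ependymal and ciliary genes ran from 0.50 on replicate 2 to −0.50 on replicate 4, with a median of 0.12 that was −0.04 with normexp and −0.24 without replicates 2 and 3.

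Blood and calprotectin genes had a median of 0.66, with 13 of 15 higher. With normexp the median was 0.22, with 10 of 15 higher. Of the 15, 11 were well above background on all 8 arrays. The list scores were 0.09, 1.40, 0.48 and 0.87 on Fe day 5 replicates 1 to 4 against −0.25 to 0.18 on the controls. Red cell genes were highest on replicates 2 and 4. The haemoglobin gene Hbb was −0.47 to −0.02 on the controls and −0.17, 1.18, −0.06 and 0.84 on the Fe arrays, and Alas2, the first enzyme of haem synthesis in red cells, was −1.31 to −0.81 and −1.40, 0.87, −0.80 and 0.21. The differences were 0.66 ± 0.44 and 0.81 ± 0.53. The part of blood content in the differences of S100a8 and S100a9 was not tested. Pf4, a chemokine of platelets and of brain border macrophages, was −3.43 to −1.50 on the controls and −1.50, −0.33, −0.37 and −1.21 on the Fe arrays, a difference of 1.37 ± 0.60.

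Signals of inflammation were uneven. Of 21 cytokine and chemokine genes 17 were higher, with a median of 0.29, and 5 of them at an unadjusted p under 0.05 were higher (Il1b, Ccl5, Ccl19, Cxcl9 and Pf4) and 4 lower (Il33, Cxcl14, Cx3cl1 and Il16), which is 23.8% and 19.0% beside 4.05% and 6.39% of all features. With normexp 11 of 21 were higher, with a median of 0.16 and with 2 higher and 3 lower at that threshold. The median was 0.11 with slide as a block, with 1 higher and 0 lower, and without Fe day 5 replicates 2 and 3 it was 0.12, with 0 higher and 2 lower. Without Fe day 5 replicate 2 or 3 or control replicate 1 or 3 alone, 1 was higher. Il1b, the fever cytokine interleukin 1 beta, was −4.76, −5.45, −4.90 and −4.39 on the controls and −4.04, −3.05, −3.92 and −4.02 on the Fe day 5 arrays. All 4 Fe arrays exceeded the controls, and the difference was 1.12 ± 0.48. Ccl5, a T cell attractant, was −2.94 and −3.25 on replicates 2 and 3 and −5.08 and −4.89 on replicates 1 and 4 against −5.70 to −4.83 on the controls, a difference of 1.18 ± 0.51 that was 0.23 without replicates 2 and 3. Cxcl9, an interferon-gamma-induced chemokine, differed by 0.73 ± 0.30 on a probe well above background on 1 of 4 controls, and by −0.13 with normexp. Cx3cl1, the neuronal ligand of the microglial receptor Cx3cr1, was a bright probe, with 7.45, 7.52, 7.30 and 7.41 on the controls and 7.02, 6.71, 7.04 and 7.23 on the Fe arrays. It lay below every control on all 4 Fe arrays, with a difference of −0.42 ± 0.13. The complement list had a median of 0.34, and 0 of its 17 genes had an unadjusted p under 0.05 in limma in either direction. This list does not hold Cfp, the properdin gene named above among the higher genes of lowest p. In the list Cfd, complement factor D, was at 1.19 ± 0.62, with 1.18 on replicate 2. Fitted on the 8 arrays alone, 2 of the 17 were higher at that threshold, beside 1408 of all 26231 features. Without replicates 2 and 3 the complement median was −0.02.

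Resident glia showed small differences. Microglial and macrophage genes had a median of 0.14, with 18 of 29 higher. Beside 4.05% of all features, 1 gene (3.45%) was higher at an unadjusted p under 0.05. That was Slc11a1, a divalent metal transporter of phagosomes, at −3.21, −2.65, −2.36 and −3.12 on the controls and −1.94, −1.94, −1.99 and −2.98 on the Fe day 5 arrays, where replicate 4 was among the controls. Its difference was 0.62 ± 0.27. The microglial markers Aif1, P2ry12 and Cx3cr1 differed by 0.21 ± 0.26, 0.14 ± 0.22 and 0.07 ± 0.23. The list of reactive astrocyte genes had a median of 0.07 that was −0.01 with normexp and −0.08 without replicates 2 and 3. Gfap, the intermediate filament of astrocytes, differed by −0.12 ± 0.31 and Aqp4, their water channel, by −0.01 ± 0.11. Ndrg2, an astrocyte gene with a very bright probe, differed by −0.21 ± 0.08 but by 0.06 with quantile normalisation. Cp, which encodes the ferroxidase ceruloplasmin, was −5.23 to −4.16 on the controls and −4.72, −1.64, −2.82 and −4.75 on the Fe arrays, a difference of 1.37 ± 0.74 that was 0.12 without replicates 2 and 3. Oligodendrocyte and myelin genes had a median of 0.14, with 22 of 25 higher, and scores of 0.06, −0.27, 0.20 and 0.55 on replicates 1 to 4. The control scores ran from −0.20 to 0.16, and without replicate 4 the median was −0.01.

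Antigen presentation and interferon genes had a median of 0.23, scores of −0.10, 0.63, 0.68 and −0.25 and, besides Mx1, a single gene at an unadjusted p under 0.05, Ifi27, an interferon-induced mitochondrial protein, at 1.00 ± 0.45. Those 2 of 28 were both higher (7.14%), beside 4.05% of all features. The list median was −0.15 without replicates 2 and 3. Irf9, a subunit of the interferon response factor, differed by −0.45 ± 0.22.

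Iron handling genes as a group were divided, 14 of 26 higher and 12 lower, with a median of 0.01 that was −0.07 with normexp and −0.01 with array median scaling. At an unadjusted p under 0.05, Heph (3.85%) was higher and Slc11a2, Hp and Slc39a14 (11.5%) were lower. Over all features these shares were 4.05% and 6.39%. Slc11a2, the ferrous iron importer DMT1, was 1.27, 1.49, 1.26 and 1.26 on the controls and 1.00, 0.95, 1.19 and 1.20 on the Fe day 5 arrays. The groups did not overlap, though the margin to replicate 4 was small, and the difference was −0.24 ± 0.10. Hp encodes haptoglobin, which binds free haemoglobin, and differed by −0.41 ± 0.17. Slc39a14, an importer of iron that is not bound to transferrin, differed by −0.28 ± 0.13. The storage gene Fth1, the heavy chain of ferritin, was 5.94, 5.93, 5.94 and 5.90 on the controls and 5.98, 5.86, 6.38 and 6.09 on the Fe arrays, a difference of 0.15 ± 0.13, with replicate 2 below the controls.

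Antioxidant and Nrf2 target genes were as evenly divided, 21 of 41 higher, with a median of 0.01 that was −0.01 with array median scaling. Gpx3, a secreted glutathione peroxidase, was −4.56 to −3.73 on the controls and −3.40, −3.25, −3.11 and −3.75 on the Fe day 5 arrays, a difference of 0.75 ± 0.26. That difference ran from 0.20 to 0.88 over the alternative settings. The glutathione transferases Gsta1 and Gsta3 were lower, by 0.30 ± 0.12 and 0.38 ± 0.16. Heat shock chaperones had a median of −0.03 that was 0.01 with quantile normalisation, with the neuronal DnaJ gene Dnajb5 at −0.56 ± 0.22. Endoplasmic reticulum stress genes had a median of −0.03 with Atf6, a sensor of unfolded protein, at −0.30 ± 0.11.

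Clock and glucocorticoid genes had a median of −0.15, with 18 of 28 lower. At an unadjusted p under 0.05, Per1, Cry2, Tef and Nfil3 (14.3%) were lower, beside 6.39% of all features. Per1 was 0.14, 0.26, 0.11 and 0.24 on the controls and −0.14, −0.07, −0.07 and −0.04 on the Fe day 5 arrays, so the groups were apart, and the difference was −0.27 ± 0.11. Cry2, a repressor of the clock, was −0.78 to −0.59 on the controls and −1.07 to −0.87 on the Fe arrays, a difference of −0.31 ± 0.10. With slide as a block the list median was 0.08. The hour of tissue collection is not given in the labels. Cell cycle and neurogenesis genes had a median of 0.12, with 19 of 27 higher. Of the 27, Ccna2, Ccnb2, Mcm6 and Dcx were higher at an unadjusted p under 0.05, and Plk1 was lower. That is 14.8% and 3.70%, beside 4.05% and 6.39% of all features. Mcm6, part of the replicative helicase, differed by 0.41 ± 0.16 and Plk1, a mitotic kinase, by −0.23 ± 0.10. Apoptosis and p53 target genes had a median of 0.07, with Bik at 1.03 ± 0.43 and Casp9, the initiator caspase of the mitochondrial pathway, at −0.25 ± 0.08. The difference of Bik ran from 0.0085 to 1.19 over the alternative settings.

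Cholesterol synthesis had a median of −0.02, which was 0.01 with quantile normalisation. At an unadjusted p under 0.05, 1 gene of 31 (3.23%), Idi1, was higher, beside 4.05% of all features. Lipid transport had a median of 0.01, which was −0.02 with array median scaling and −0.01 with normexp, and Apoe, the main lipid carrier made by astrocytes, differed by −0.19 ± 0.09 but by 0.09 with quantile normalisation. Fatty acid and glycerolipid synthesis had a median of −0.09, with 22 of 30 lower, fatty acid oxidation one of 0.05, and sphingolipids and gangliosides one of −0.06. In the last list the ganglioside enzymes B4galnt1 and St3gal5 differed by −0.31 ± 0.13 and −0.22 ± 0.09, and the sphingosine kinase Sphk1 by 1.13 ± 0.48. Among eicosanoid genes, with a median of 0.12, Hpgds, a prostaglandin D synthase of blood-derived cells and microglia, was −4.11 to −3.94 on the controls and −3.63, −3.05, −3.47 and −3.43 on the Fe day 5 arrays. Its groups were well apart, and the difference was 0.63 ± 0.23, and 0.16 to 0.71 over the alternative settings. Pla2g2a, a secreted phospholipase of inflammation, was −7.93 to −5.43 on the controls and −5.09, −3.60, −3.58 and −5.42 on the Fe arrays. It was well above background on 1 of 4 controls, and the difference was 2.12 ± 0.81, and 0.34 to 2.49 over the alternative settings.

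Genes for basic cell functions had small differences. Ribosomal protein genes had a median of −0.06, with 45 of 57 lower, and that median was 0.03 with quantile normalisation. Rps2 and Rpl35 differed by −0.23 ± 0.07 and −0.20 ± 0.08. The respiratory chain had a median of 0.02 that turned just below 0 with array median scaling, with Ndufb8 of complex I at −0.18 ± 0.06. The proteasome had a median of −0.01 that was 0.04 with quantile normalisation and 0 of 26 at an unadjusted p under 0.05 in limma in either direction. With quantile normalisation, 4 of 26 proteasome genes and 7 of 46 respiratory chain genes were higher at that threshold, beside 1006 of all 26231 features.

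Spread between arrays was wider in the iron group than in the controls. The SD over the 4 arrays was larger at Fe day 5 than in the controls for 68.5% of features, with a median of 0.18 against 0.13. An SD over 1 was found for 548 features at Fe day 5 and for 135 in the controls. Correlations across features, which are not independent replicates, ran from 0.993 to 0.995 between control arrays and from 0.981 to 0.990 between Fe day 5 arrays. The median Fe group SD was 0.13 with replicates 2 and 3 left out, that is, over replicates 1 and 4 alone. An SD over fewer arrays tends to come out smaller, so this value cannot be set against those over 4 arrays.

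The Fe arrays differed in how many features stood far from the controls and in which. Replicate 2 had 1194 features at least 2-fold above the control mean and 495 below it, against 357 and 208 for replicate 1, 523 and 99 for replicate 3 and 332 and 216 for replicate 4. Control arrays, each set against the other 3, had 82 to 228 above and 105 to 178 below. Of the features that were 2-fold higher on any Fe array, 1035 were so on a single array, 496 on 2, 105 on 3 and 16 on all 4. Replicates 1 and 2 shared 245 higher features, which is 68.6% of those of replicate 1 and 20.5% of those of replicate 2. Replicates 2 and 3 shared 314, or 26.3% and 60.0%, whereas replicates 3 and 4 shared 40, or 7.65% and 12.0%.

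**Figure D5:**
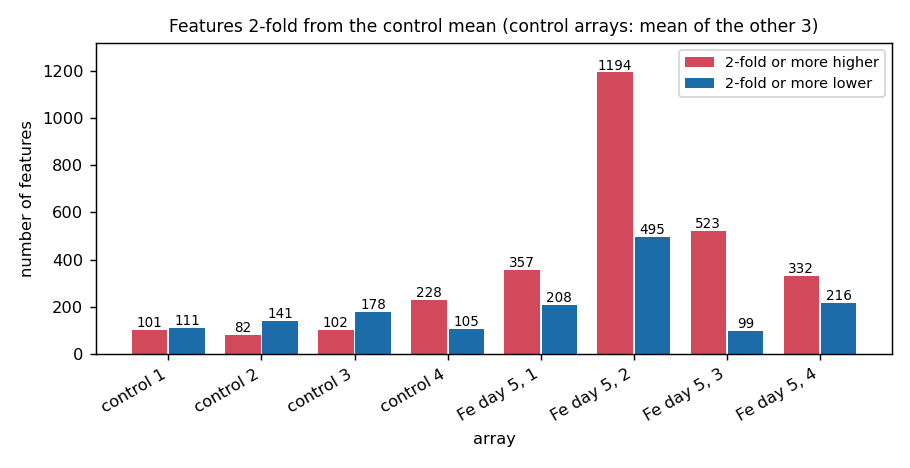
Number of features (y axis) at least 2-fold higher (red) or lower (blue) than the control mean on each array (x axis), with each control set against the mean of the other 3. Fe day 5 replicate 2 has the most in both directions, 1194 and 495, and every Fe array has more higher features than any control, whose largest count is 228.

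Some features set a single Fe array apart while the other 3 stayed within 0.5 of the control mean, and these were picked for that difference. On replicate 1 these included Atp7a, a copper transporter, at −4.18 against −2.67 to −2.28 on the other 3 Fe arrays, and Slc10a5, a solute carrier, at −3.51 against −6.48 to −5.90. Replicate 2 had the keratin gene Krt15 at −2.86 against −5.06 to −4.87 and Cacng3, a regulator of AMPA receptors, at −1.09 against −0.19 to 0.12. Replicate 3 had Tbl1x, a subunit of a nuclear corepressor complex, at 2.47 against 0.76 to 0.93, although its probes disagreed, with mean differences from 0.03 to 0.59. Replicate 4 had Rnase4, a secreted ribonuclease, at −1.77 against 1.43 to 1.65.

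The later Fe groups are set beside day 5 for the genes above. They were compared with the same controls, so the 3 differences share their control values. Genes picked for their day 5 difference also tend to show a smaller one at other days through the picking alone. The order of days is therefore only described. Day 5 and day 15 arrays differed at an adjusted p under 0.05 for 0 features by limma, with 1892 at an unadjusted p under 0.05 and a lowest adjusted p of 0.167, and day 5 and day 30 arrays for 0 features, with 774 and a lowest adjusted p of 1.00. Calprotectin genes, picked on their day 5 values, had their largest differences at day 5. S100a9 differed from the controls by 1.55, 1.01 and 0.44 at days 5, 15 and 30 (SE 0.34 each) and S100a8 by 2.56, 1.62 and 1.26 (SE 0.58 each), and the limma adjusted p of day 5 against day 30 was 1.00 for both. Heph differed by 1.23, 0.78 and 0.71 (SE 0.30 each). Arhgap17 differed by 1.14, 0.19 and 1.06 (SE 0.23 each), the day 15 value being the lowest, with a limma adjusted p of 0.264 for day 5 against day 15. Stat6 differed by −0.73, −0.68 and −0.67 (SE 0.16 each), nearly the same at all times. Pla2g2a differed by 2.12 at day 5 and by −0.01 and 0.23 later (SE 0.81 each), with limma adjusted p-values of 0.586 and 1.00 for day 5 against days 15 and 30. Its probe was dim, and the day 5 difference ran from 0.34 to 2.49 over the alternative settings. Per1 differed by −0.27, 0.20 and −0.09 (SE 0.11 each), with a limma adjusted p of 0.259 for day 5 against day 15. Bdnf was lower at all times, by 0.31, 0.67 and 0.35 (SE 0.11 each). The median of the immediate early genes was −0.26, −0.40 and −0.42 at days 5, 15 and 30, that of principal cell markers −0.38, −0.32 and −0.30, and that of meningeal genes 1.05, 0.30 and 0.82.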

How the data were processed

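Per the file headers, the authors scanned 1-colour Cy3 Agilent arrays and extracted spot intensities with Feature Extraction 9.5.3.1, which the submitters' processing notes give as 9.5. The deposited intensity of each of 43379 transcript spots is the processed signal, already background-subtracted. Each array was set to log2 intensity minus its 75th percentile, and spots of a probe were averaged. Probes well above background on all arrays of the Fe day 5 or the control group were kept (30182), and 122 with outlier marks were left out. A gene was read from its brightest probe, which gave 26231 features, named from the files and RefSeq for GRCr8 (15184 of 20378 RefSeq accessions matched).

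The test was limma 3.58.1 in R 4.3.3, two-sided, on 4 groups of 4 arrays with 12 residual degrees of freedom, with Benjamini-Hochberg adjustment over all features. The method was tested on simulated data. The median SE was 0.13, so a difference of 0.29 was needed for an unadjusted p of 0.05, and 4 arrays a group limit the precision. A single-gene exact permutation of 4 against 4 could not go below 0.0286. The design text gives 16 rats for the 16 arrays.

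Named genes were the 12 of lowest p without overlap and the 6 of largest difference in each direction at an unadjusted p under 0.05 and well above background on all 8 arrays, the 3 of lowest p in each list, and the 5 highest and 5 lowest of each single Fe array. Other list members are named for their known roles and were chosen after their values were seen, and some genes are not reported here. The groups, the 39 gene lists and these rules were chosen with earlier results of these data known. Replicate numbers did not pair the arrays, since deviations of same-numbered arrays correlated at −0.12, −0.06, 0.01 and −0.03. One label calls the animals mice, while the others describe rats. The alternatives were other scalings, background corrections, filters, probe rules, blocks for replicate number and slide, array weights and arrays left out.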

Additional observations from a re-analysis of the deposited data

Results flagged for a closer look

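In 32 of 402 sets of 4 values, drawn from named genes and list scores, 1 array lay far from the other 3 of its group, the gap taking more of the group's range than Dixon's critical value for 4 values. Chance gives about 1 such set in 20 for values that were not picked beforehand. Of the 32, 8 in the Fe day 5 group and 1 in the controls belonged to genes picked because a single Fe array differed. The count of 32 therefore cannot be set against that rate.

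Control replicate 2 was the array apart for Ccna2 at −4.34, Tef at 2.18, Plk2 at 2.46, Unc13a at 0.65, Slc11a2 at 1.49, the chaperone gene Hsp90ab1 at 7.62, Atf6 at 1.70, the growth factor binding protein gene Igfbp2 at −2.27, Sphk1 at −5.70 and St3gal5 at 4.98. Control replicate 3 was apart for Tmem202 at −2.32, Cxcr1 at −0.18 and the metalloproteinase gene Mmp23 at −0.58. Control replicate 4 was apart for Cacna1a at −1.84 and control replicate 1 for Tagln at −1.31.

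Fe day 5 replicate 2 was apart for Ivd at 2.73, where it was the Fe array nearest to the controls, and for Pdgfra at 2.38 and C1ql2 at 2.52, where it was the farthest. Its list scores were apart for glutamate receptors and transporters at −0.32, voltage-gated ion channels at −0.40 and the endocannabinoid system at −0.23. Replicate 3 was apart for Cd55, a complement inhibitor, at −5.48 and for Cxcl9 at −5.73. Replicate 4 was apart for Slc11a1 at −2.98.

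Genes picked because a single Fe array differed included Olr1092 at −2.07 and Krt15 at −2.86 on replicate 2. On replicate 3 they included Scgb1c1 at 0.015, Tbl1x at 2.47, Cldn34e at −8.28 and Spatc1l at −5.28. On replicate 4 they included Rnase4 at −1.77 and Eddm3b at −5.17.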

How the results depend on the processing

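The comparison has 4 arrays a group, a single slide that holds both groups and controls from day 15 alone. With normexp background correction the dim probes of S100a9 and S100a8 differed by 0.24 and 0.22. Under the 21 alternatives limma called 0 features, except 1 unnamed probe without the filter on dim probes. The count at an unadjusted p under 0.05, 2738, was 1098 with slide as a block and 4588 with array weights, and 1351 to 3694 with single arrays left out. Array weights called 2 features between day 5 and day 15. The median Fe group SD was 0.25 without the filter. It was 0.13 without Fe day 5 replicates 2 and 3, a value over fewer arrays that cannot be set against the rest. With the replicate number as a block, 2456 features had an unadjusted p under 0.05, 1067 higher and 1389 lower, with 0 called and a lowest limma adjusted p of 0.532. The lowest limma adjusted p over the alternatives that called 0 ran from 0.0832 to 0.902.

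The named genes were picked on the same arrays, none passed the threshold in the main fit, and size was not counted. The share that kept their direction is therefore no separate check. Of 3014 values for 144 named genes, 3002 kept their direction and side of the threshold and 12 changed sign. Those were Mia at 0.16 with slide as a block, then Ndrg2 at 0.058, Apoe at 0.092 and Cox6a1 at 0.075 with quantile normalisation. With normexp they were Pafah2 at −0.13, Gabrg3 at −0.069, Spi1 at −0.025, Cd55 at −0.10, Cxcl9 at −0.13 and Spag6l at −0.14. Without Fe day 5 replicates 2 and 3 they were Des at −0.068 and Rarres2 at −0.15. Of 819 values of list medians 13 moved by more than the spread between arrays, and 75, in 19 lists, changed sign. That spread was the SD of each list's own Fe day 5 scores, which was wide where replicates 2 and 3 stood apart. The fall of the meningeal median without those replicates is thus not among the 13, and the count does not show that such lists held. With slide as a block the microglial median was −0.13, that of antigen presentation −0.07 and that of clock genes 0.08. The cause was not tested.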
